A study of Mus musculus with 12 samples.

Results

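The basement membrane genes described here are 10: the type IV collagen chains Col4a1 and Col4a2, the laminin chains Lama1, Lama5, Lamb1 and Lamc1, the nidogens Nid1 and Nid2, the perlecan core protein Hspg2, and Sparc. They were chosen by gene symbol, among 18193 symbols that the platform annotation gives singly to a probe set. That choice was made with earlier results of these data known. Every probe set of these 10 was taken, 18 on the Affymetrix array MOE430A and 4 on its companion MOE430B. RNA of R1, a mouse embryonic stem cell line from the early embryo, was compared between 3 RNAs labelled as differentiated into embryoid bodies (D1 to D3) and 3 labelled as undifferentiated (U1 to U3), each hybridised once to both array types, 12 arrays in all. Embryoid bodies are clumps of stem cells that start to form the tissues of the embryo. The growth protocol has the same words for either group, 5 days in bacterial Petri dishes with 10% serum, and does not say how the cultures were made to differ. Both groups are of the same line with no allele or drug named, the undifferentiated cultures were judged 95% pure by eye, and the 3 RNAs of a group carry 1 shared source number. Since separate cultures are not stated for them, p-values here rest on the spread among 3 RNAs per group, which may be technical.

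Basement membranes are thin sheets of matrix on which epithelia rest. Laminins, trimers of an alpha, a beta and a gamma chain, assemble at the cell surface, and a separate network of type IV collagen, made mostly of alpha1 and alpha2 chains, is linked to them by nidogens and perlecan. In the early mouse embryo such a sheet forms between the primitive endoderm and the epiblast, and in embryoid bodies it forms under an outer layer of endoderm. Parietal endoderm, which lays down Reichert's membrane, secretes laminin, type IV collagen and Sparc in large amounts.

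Col4a1 was about 2-fold higher in the differentiated RNAs, while the called probe sets of Lama5, Nid1, Nid2 and Hspg2 were 1.72-fold to 4.43-fold lower. Both ends of this range are probe sets of Hspg2. With 1 probe set for each gene, 1 of the 10 rose, 4 fell and 5 did not pass, against 2.08% of all 16461 genes that were called, 0.923% higher and 1.16% lower (limma, Benjamini-Hochberg adjusted p under 0.05). On MOE430A, 17 of the 18 probe sets passed the filter on dim signals, and 1 of them rose and 5 fell, where 2.87% of all 18025 tested probe sets were called, 1.31% higher and 1.56% lower. The median difference of these 17 was -0.61 on the log2 scale, against 0.02 over all tested probe sets of that array. On MOE430B, 3 of 4 were tested and 0 were called (limma; 0 also at an unadjusted p under 0.05), where 0.0197% of 20344 were called. The groups did not overlap for 2 higher and 11 lower of the 17 on MOE430A, against 11% and 10.1% of all, and for 1 higher of the 3 on MOE430B, against 5.96% of all. The plot of differences shows these values for all 20 tested probe sets.

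**Figure D1:**
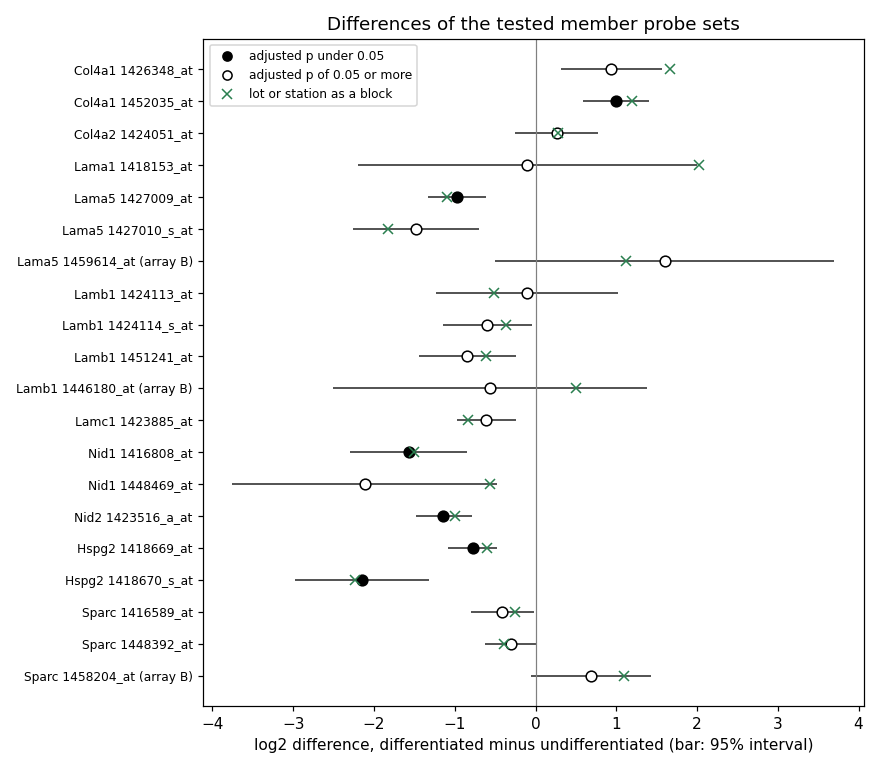
Differences of the 20 tested probe sets on the log2 scale (horizontal axis, differentiated minus undifferentiated), with 95% intervals as bars, filled circles for an adjusted p under 0.05, and green crosses for the fit with array lot or station as a block. The filled circle of Col4a1 lies at 1.0 and the other 5 filled circles lie between -2.15 and -0.78.

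All signals below are MAS5 signals scaled to a trimmed mean of 500 and given as log2, with a floor of 32, which is 5 on this scale. A probe set's level depends on its own probes, so levels are compared between RNAs and not between genes. The deposited medians of the arrays lay between 674.6 and 820.7 on MOE430A and between 882.1 and 1047.6 on MOE430B, and the number of arrays limits the precision. On MOE430A the arrays of D1, D2, D3 and U1 were of lot 1 and those of U2 and U3 of lot 2, and the fluidics station separated the groups exactly, so that station and group cannot be told apart. MOE430B had 1 lot, and its arrays of D1, D2, D3 and U1 were run on station 2. The log2 ratio of 3' to 5' actin control signal, a sign of RNA integrity, was 0.7, 0.15 and 0.17 in D1 to D3 and 0.31, 0.13 and 0.21 in U1 to U3 on MOE430A. Its part in the results was not tested.

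With lot or station as a block, a comparison of D1 to D3 with U1 alone, 0 of the 6 called probe sets passed (adjusted p between 0.0773 and 0.303) and all 6 had the same sign, which is fixed because their groups do not overlap. The other probe set of Col4a1 then passed (1.67, adjusted p = 0.017), so 1 member probe set was called, where 0.588% of all probe sets of MOE430A were. Without U2 or without U3, 3 member probe sets of MOE430A were called, and with 1 probe set per gene 3 of the 10 were called without D2, 3 without U2 and 2 without U3. Calls over all 18025 tested probe sets of MOE430A also fell, from 518 to 354 without D2, 214 without U2 and 190 without U3. Shares over all genes were not counted for these fits.

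The commonest type IV collagen is a trimer of alpha1 and alpha2 chains. Col4a1, the alpha1 chain, had log2 signals of 10.34, 10.61 and 10.54 in D1 to D3, against 9.30, 9.78 and 9.41 in U1 to U3 (probe set 1452035_at). All 3 differentiated RNAs lay above every undifferentiated one, by a difference of 1.0 ± 0.18 (SE, n = 3 each, limma adjusted p = 0.0141). The differentiated mean was 10.49 ± 0.14 and the undifferentiated mean 9.50 ± 0.25 (SD, n = 3 each). The other probe set, 1426348_at, had 10.33, 10.59 and 10.28 in D1 to D3, against 8.73, 9.84 and 9.81 in U1 to U3. These groups did not overlap either, and U1 was the lowest, but the difference of 0.94 ± 0.28 (SE) did not pass (adjusted p = 0.109). The call of the first probe set ended without D2 (0.94, adjusted p = 0.0588), without D3 (0.98, adjusted p = 0.0629) and without U3 (0.95, adjusted p = 0.0774). Its alternatives spanned adjusted p-values of 0.00842 to 0.129.

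Col4a2, the alpha2 chain, had 8.88, 9.35 and 9.0 in D1 to D3, against 8.80, 8.67 and 8.97 in U1 to U3. The groups overlapped, and the difference of 0.26 ± 0.23 (SE, adjusted p = 0.656) had a 95% interval from -0.24 to 0.76. Col4a1 and Col4a2 lie head to head and are transcribed in opposite directions, so their promoter windows are shown together with the signal of 1 chain set against the other. In the RefSeq table of the build GRCm38.p6, which gives 250 bases before and 50 after an annotated start, the windows of both genes overlap by 78 bases and their starts lie 21 bases apart. The windows are chr8:11312777-11313076 on the minus strand for Col4a1 and chr8:11312555-11312854 on the plus strand for Col4a2, each given 5′ to 3′ on the strand of its gene. Capitals mark the GC box GGGCGG and the CCAAT box CCAAT, on either strand.
Col4a1: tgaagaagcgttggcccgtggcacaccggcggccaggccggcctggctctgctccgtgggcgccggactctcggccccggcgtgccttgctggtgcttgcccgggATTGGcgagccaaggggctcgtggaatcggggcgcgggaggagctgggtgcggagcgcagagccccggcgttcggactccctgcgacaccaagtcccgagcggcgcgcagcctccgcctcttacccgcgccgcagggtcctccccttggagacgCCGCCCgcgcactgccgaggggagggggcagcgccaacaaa
Col4a2: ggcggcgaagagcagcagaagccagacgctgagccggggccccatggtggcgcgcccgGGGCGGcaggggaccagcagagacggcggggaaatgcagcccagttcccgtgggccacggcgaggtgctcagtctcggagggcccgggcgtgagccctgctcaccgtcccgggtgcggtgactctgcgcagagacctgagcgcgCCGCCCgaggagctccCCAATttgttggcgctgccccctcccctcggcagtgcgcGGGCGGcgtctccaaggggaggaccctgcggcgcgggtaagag

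The log2 signal of Col4a1 minus that of Col4a2 was 1.46, 1.26 and 1.54 in D1 to D3, against 0.5, 1.11 and 0.44 in U1 to U3, with probe set 1452035_at for Col4a1. With 1426348_at it was 1.46, 1.24 and 1.28 in D1 to D3, against -0.07, 1.17 and 0.84 in U1 to U3. The ratio was higher in every differentiated RNA than in any undifferentiated one with both probe sets, and U2 (1.11 and 1.17) lay close to the lowest differentiated values (1.26 and 1.24). The shift was 0.73 and 0.68 on the log2 scale (two-sided exact permutation test, p = 0.1 for each of 2 comparisons and 0.1 after Benjamini-Hochberg adjustment, n = 3 each), and 0.1 is the smallest p that 3 against 3 can give. This comparison was chosen after the values had been seen.

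**Figure D2:**
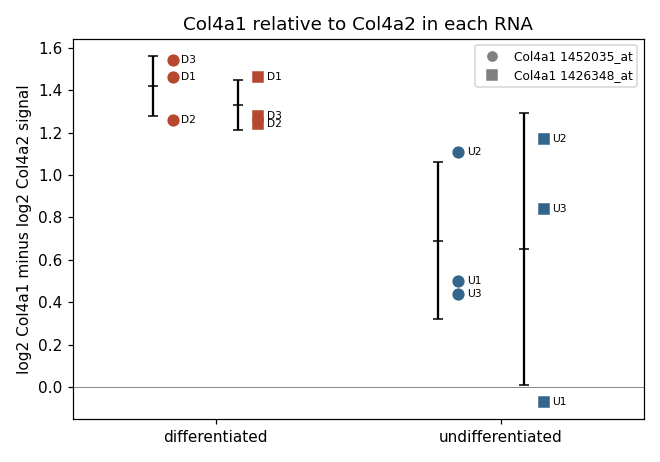
Difference of the log2 signals of Col4a1 and Col4a2 in each RNA (vertical axis) for both probe sets of Col4a1, with mean and SD beside the points, differentiated RNAs on the left. The 6 differentiated values lie between 1.24 and 1.54, and the highest undifferentiated value is 1.17, in U2.

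Among laminin alpha chains, Lama5, the alpha5 chain found in most epithelial basement membranes, was lower in differentiated RNAs. It had 10.72, 10.48 and 10.25 in D1 to D3, against 11.59, 11.32 and 11.46 in U1 to U3 (1427009_at). Every differentiated RNA lay below every undifferentiated one, with a difference of -0.97 ± 0.16 (SE, n = 3 each, limma adjusted p = 0.00761). A second probe set, 1427010_s_at, whose suffix marks probes that can bind several transcripts, had 9.53, 7.99 and 8.45 in D1 to D3, against 10.49, 9.85 and 10.07 in U1 to U3. Its groups did not overlap, but the difference of -1.48 ± 0.35 (SE) just missed the threshold (adjusted p = 0.0509), and without D1 it passed (-1.91, adjusted p = 0.00416). The MOE430B probe set 1459614_at ran from 6.61 to 9.35 in differentiated and from the floor to 7.63 in undifferentiated RNAs, with a difference of 1.6 and a 95% interval of -0.49 to 3.69. The probe sets of Lama5 thus differ in sign, and the one on MOE430B did not pass (adjusted p = 0.841).

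Lama1, the alpha1 chain of the laminin of the earliest embryonic basement membranes and of Reichert's membrane, had 5.28, 8.22 and 7.56 in D1 to D3, against 5.00, 8.26 and 8.09 in U1 to U3. The signal was at or near the floor in D1 and U1 and higher in the other 4 RNAs of both groups. The difference of -0.10 has a 95% interval of -2.19 to 1.99 (limma adjusted p = 0.976), which includes changes of up to about 4-fold in either direction. Without D1 the difference was 0.77.

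The beta1 and gamma1 chains pair with both alpha chains. Lamc1, the gamma1 chain, had 9.98, 9.82 and 9.90 in D1 to D3, against 10.73, 10.40 and 10.39 in U1 to U3 (1423885_at). These groups did not overlap, yet the difference of -0.61 ± 0.16 (SE, n = 3 each) did not pass (limma adjusted p = 0.0742). Its other probe set, 1423886_at, was too dim to test, with 5.00 to 5.46 in differentiated and 5.79 to 6.27 in undifferentiated RNAs. Lamb1, the beta1 chain, had differences of -0.11, -0.60 and -0.85 with its 3 MOE430A probe sets and -0.56 on MOE430B, none of which passed (adjusted p of 0.137 or more). For 1451241_at, the one with the largest difference, the signals were 8.33, 8.98 and 8.20 in D1 to D3, against 9.12, 9.33 and 9.60 in U1 to U3, and the groups did not overlap. For 1424114_s_at they were 9.33, 8.54 and 8.89 in D1 to D3, against 9.29, 9.59 and 9.66 in U1 to U3, where D1 lay above U1.

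Both nidogens, which bridge laminin and type IV collagen, were lower. Nid2 had 9.79, 9.64 and 9.59 in D1 to D3, against 10.67, 10.93 and 10.83 in U1 to U3. The groups lay apart by more than the spread within either, with a differentiated mean of 9.67 ± 0.11 and an undifferentiated mean of 10.81 ± 0.13 (SD, n = 3 each) and a difference of -1.14 ± 0.15 (SE, limma adjusted p = 0.00326). This was the lowest adjusted p among the member probe sets, and it was 0.0744 without the intensity trend and 0.0901 with lot as a block, within a range that began at 0.0038. Nid1 had 7.44, 7.29 and 8.27 in D1 to D3, against 9.17, 9.53 and 9.0 in U1 to U3 (1416808_at). The groups did not overlap, with a difference of -1.57 ± 0.32 (SE, adjusted p = 0.0277), a call that was lost in 11 of 15 alternatives, among them leaving out D1, D2, U1, U2 or U3 (adjusted p from 0.0502 to 0.156). A second probe set of Nid1, 1448469_at, had 5.52, 5.26 and 5.76 in D1 to D3, against 6.08, 7.83 and 8.97 in U1 to U3, and its difference of -2.11 ± 0.74 (SE) did not pass (adjusted p = 0.182). The undifferentiated RNAs differed among themselves there, and against U1 alone the difference was -0.56. The MOE430B probe set of Nid1 was too dim to test.

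Hspg2 encodes the core protein of perlecan, a large heparan sulphate proteoglycan of basement membranes. It had 11.30, 11.37 and 11.43 in D1 to D3, against 11.97, 12.33 and 12.15 in U1 to U3 (1418669_at), a difference of -0.78 ± 0.13 (SE, n = 3 each, limma adjusted p = 0.00938). With 1418670_s_at, whose suffix again marks probes that can bind several transcripts, it had 8.47, 7.56 and 6.81 in D1 to D3. In U1 to U3 it had 9.85, 9.86 and 9.58, a difference of -2.15 ± 0.37 (SE, limma adjusted p = 0.0111). Both probe sets passed with no overlap of the groups, but the sizes were 1.72-fold and 4.43-fold, and the differentiated RNAs were spread more widely on the dimmer one (SD 0.83 against 0.16 in undifferentiated RNAs). Both calls ended without U2 (adjusted p = 0.068 and 0.0682), and that of 1418669_at also without U3 (0.0555).

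Sparc, a secreted calcium-binding protein that binds type IV collagen, did not pass with any probe set. It had 10.90, 11.45 and 11.54 in D1 to D3, against 11.56, 11.78 and 11.77 in U1 to U3 (1416589_at, -0.41 ± 0.17, SE, limma adjusted p = 0.279). With 1448392_at it had 11.13, 10.94 and 10.78 in D1 to D3, against 11.34, 11.26 and 11.15 in U1 to U3 (-0.30 ± 0.14, SE, adjusted p = 0.328). Both MOE430A probe sets were lower with no overlap, while the MOE430B probe set 1458204_at was higher with no overlap, at 9.79, 10.21 and 10.13 in D1 to D3, against 8.94, 9.68 and 9.42 in U1 to U3 (0.69 ± 0.32, SE, adjusted p = 0.841). The probe sets of Sparc thus differ in sign, as the plot of signals by RNA shows.

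**Figure D3:**
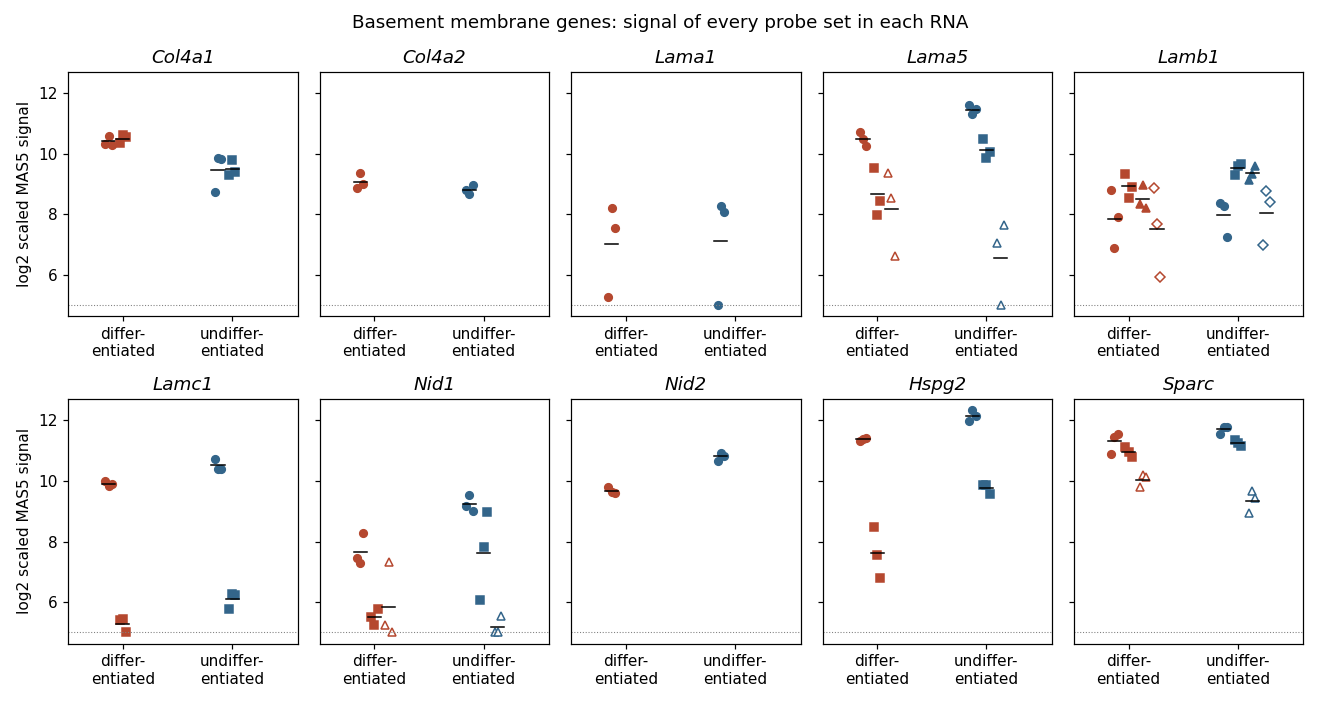
Log2 scaled signal (vertical axis) of every probe set of the 10 genes in each RNA, with differentiated RNAs in red on the left and undifferentiated RNAs in blue on the right of each panel. Each symbol shape is 1 probe set, open symbols are MOE430B, short lines are means and the dotted line at 5 is the floor. Lama1 lies at 5.28 in D1 and at the floor in U1, while both probe sets of Col4a1 and the single one of Nid2 separate the groups.

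The promoter windows of the members that fell and are in the RefSeq table are shown to set them beside the Col4a1 and Col4a2 windows. They are chr2:180225810-180226109 on the minus strand for Lama5, chr13:13437352-13437651 on the plus strand for Nid1 and chr4:137468553-137468852 on the plus strand for Hspg2, 5′ to 3′ with the same boxes in capitals.
Lama5: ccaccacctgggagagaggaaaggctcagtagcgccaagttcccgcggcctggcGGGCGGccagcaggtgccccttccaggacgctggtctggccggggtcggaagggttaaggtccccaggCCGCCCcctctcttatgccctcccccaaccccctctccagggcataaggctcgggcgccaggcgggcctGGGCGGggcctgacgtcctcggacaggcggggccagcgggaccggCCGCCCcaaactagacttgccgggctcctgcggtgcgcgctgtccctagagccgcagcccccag
Nid1: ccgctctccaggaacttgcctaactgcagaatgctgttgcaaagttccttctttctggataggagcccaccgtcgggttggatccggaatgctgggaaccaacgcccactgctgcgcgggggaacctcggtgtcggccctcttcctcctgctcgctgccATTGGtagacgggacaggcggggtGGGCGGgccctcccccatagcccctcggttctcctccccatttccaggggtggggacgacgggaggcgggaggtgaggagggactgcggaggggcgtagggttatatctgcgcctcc
Hspg2: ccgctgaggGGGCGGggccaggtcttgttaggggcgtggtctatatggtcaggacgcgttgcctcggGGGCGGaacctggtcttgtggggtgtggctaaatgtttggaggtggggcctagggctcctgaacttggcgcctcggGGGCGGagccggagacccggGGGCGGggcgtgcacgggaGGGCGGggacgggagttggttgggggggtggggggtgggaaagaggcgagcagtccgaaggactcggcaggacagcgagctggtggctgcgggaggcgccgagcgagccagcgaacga

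The table held windows of 7 members. A GC box was found in 6 of them, with 1 for Col4a1, 3 for Col4a2, 4 for Lama5, 1 for Nid1, 5 for Hspg2, 2 for Lamb1 and 0 for Sparc, against 35.7% of the 32851 windows in the table with at least 1. The box of Col4a1 lies in the bases shared with Col4a2 and is the same site as 1 of the 3 there, so these windows are not separate counts. A CCAAT box was in 4 of the 7, Col4a1, Col4a2, Lamb1 and Nid1, against 37.4% of all. The motif TATAAA was in 0 of the 7, against 13.6% of all. The share of G and C was 64.7% to 74% in the 5 printed windows and 55.3% for Sparc, with a median of 52.7% over all windows. A match describes the letters of a window only.

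Other chains and components of basement membranes were examined as lists, each with 1 probe set for a gene. Over all 16461 genes the median difference was 0.01. Of the other type IV collagen and laminin chains, 9 of 11 were tested and 0 were called (limma; 2 at an unadjusted p under 0.05), with a median of -0.18. Of 15 tested further components, 0 rose and 2 fell, with a median of -0.42. They were Fbln2, the matrix protein fibulin-2 that binds laminin and nidogen (-2.20 ± 0.23, SE, adjusted p = 0.00085), and Col18a1, the core of the collagen XVIII proteoglycan and source of endostatin (-1.97 ± 0.18, SE, adjusted p = 0.000459). Fbln2 lay between 8.13 and 8.80 in differentiated and between 10.27 and 10.90 in undifferentiated RNAs. Col18a1 lay between 10.13 and 10.51 in differentiated and between 11.93 and 12.53 in undifferentiated RNAs. Both also passed with lot as a block (adjusted p = 0.0368 and 0.0115).

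Among 23 tested genes of collagen modification, secretion and crosslinking, 0 rose, 3 fell and 20 did not pass, with a median of -0.28. Those that fell were Lox, the lysyl oxidase that starts collagen crosslinks (-2.33 ± 0.46, SE, adjusted p = 0.0222), Crtap, a partner of prolyl 3-hydroxylase (-1.37 ± 0.19, SE, adjusted p = 0.00405), and Plod3, a lysyl hydroxylase and glycosyltransferase of type IV collagen (-0.77 ± 0.15, SE, adjusted p = 0.0229). With lot as a block 0 of the 3 passed (limma adjusted p from 0.114 to 0.34). P4ha1, the catalytic subunit of prolyl 4-hydroxylase, had 9.57, 9.50 and 9.71 in D1 to D3, against 8.62, 9.24 and 9.02 in U1 to U3, a difference of 0.63 that did not pass (adjusted p = 0.169). Serpinh1, the collagen chaperone HSP47, had a difference of -0.26 (adjusted p = 0.519). P4ha1 and Serpinh1 lie outside the naming rule and were added with their values known.

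The receptors that passed were lower in differentiated RNAs. Of 14 receptors and adaptors, 0 rose, 5 fell and 9 did not pass, with a median of -0.24. Bcam, a receptor of the laminin alpha5 chain, had 9.43, 9.83 and 9.18 in D1 to D3, against 11.02, 11.02 and 10.89 in U1 to U3 (-1.50 ± 0.18, SE, adjusted p = 0.00189). The integrin subunits Itga3 (-1.19), Itgb1 (-0.90) and Itga6 (-0.79), which form laminin receptors, had limma adjusted p between 0.042 and 0.0497. Their calls were lost in 12, 12 and 11 of 15 alternatives. Dag1, the laminin receptor dystroglycan, fell by 0.66 on the log2 scale (limma adjusted p = 0.0397) and is named after its values were seen. Its call was lost in 11 of 15 alternatives. Of these 5, only Bcam also passed with lot as a block (adjusted p = 0.044).

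Factors of the endoderm, which secretes this matrix in the embryo, formed a further list. Of 7 tested, 4 rose, 0 fell and 3 did not pass, with a median of 1.25: Foxa2 (2.26 ± 0.24, SE, adjusted p = 0.000855), Gata6 (1.51 ± 0.32, SE, adjusted p = 0.0349), Sox17 (1.47 ± 0.27, SE, adjusted p = 0.0162) and the endocytic adaptor Dab2 (1.25 ± 0.28, SE, adjusted p = 0.0415). With lot as a block Foxa2 passed (adjusted p = 0.00761), while Sox17 (0.222), Gata6 (0.27) and Dab2 (0.534) did not, and the calls of Gata6 and Dab2 were lost in 10 and 11 of 15 alternatives. Pdgfra was the only tested gene of this list with a negative difference, -1.01, and did not pass (limma adjusted p = 0.568). Its signals ran from 5.00 to 8.17 in differentiated and from 7.28 to 7.70 in undifferentiated RNAs, so the groups overlapped. Over the 5 lists 14 genes were called, 4 higher and 10 lower. Of all 16461 genes, 2.08% were called, 0.923% higher and 1.16% lower. The count for the lists was 4 with lot or station as a block, 8 without D2 or without D3, 5 without U2 and 6 without U3. For these other fits, shares over all genes were not counted.

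**Figure D4:**
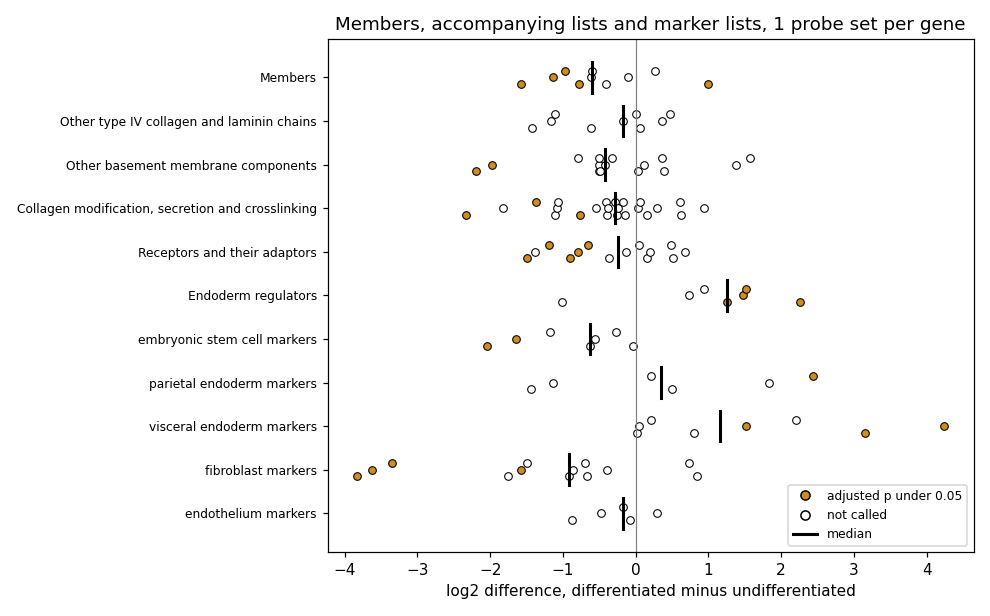
Log2 differences (horizontal axis, differentiated minus undifferentiated) of the members, the 5 accompanying lists and the 5 marker lists, 1 probe set per gene, with filled points for an adjusted p under 0.05 and a bar at the median of the genes tested. The medians are -0.60 for the members and 1.25 for the endoderm regulators.

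Cell type markers were read beside these results. Because the RNA is of whole cultures, fewer cells of a type and less RNA per cell cannot be told apart. The summed scaled signal of 13 fibroblast markers was 3113 to 5291 in differentiated RNAs, against 9705 to 10632 in undifferentiated RNAs, and 0 of them rose and 4 fell: S100a4 (-3.83), Bgn (-3.63), Pcolce (-3.35) and Col1a2 (-1.57), with Bgn at the floor in D3 and Col3a1 in D2. With lot as a block S100a4 and Pcolce passed (adjusted p = 0.0368 and 0.0148), while Col1a2 (0.0626) and Bgn (0.294) did not, and Bgn was also lost without U1 (0.0596), U2 (0.0881) or U3 (0.0963). Of the 13 fibroblast markers, 11 lay below 0 and 2 above, Lum (0.84) and Dcn (0.74), with a median of -0.91. The 4 that fell moved with Lama5, Nid1, Nid2, Hspg2 and the lower genes of the lists, and their part in those results was not tested. The 8 visceral endoderm markers tested summed to 3277 to 3977 in differentiated RNAs, against 1012 to 1333 in undifferentiated RNAs, with 3 that rose, Ttr (4.24), Apoa1 (3.15) and Rbp4 (1.52), and Ttr at the floor in U2, Apoa1 in U3 and Cubn in D3 and U2. With lot as a block Ttr passed (adjusted p = 0.044), while Rbp4 (0.127) and Apoa1 (0.233) did not, and Apoa1 was also lost without D3 (0.0553). The 3 that rose moved with Col4a1, and their part in its difference was not tested. All 8 visceral endoderm markers lay above 0, with a median of 1.16, but 5 did not pass. Among these, Amn (0.02), Cubn (0.05) and Hnf4a (0.21) had the smallest differences.

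The 6 parietal endoderm markers overlapped between the groups, with sums of 1354 to 1989 in differentiated RNAs and 1333 to 1500 in undifferentiated RNAs. Srgn, the proteoglycan serglycin, rose (2.44, limma adjusted p = 0.0399) and was at the floor in U2. This call was lost in 12 of 15 alternatives, among them the lot block (0.395) and leaving out any RNA other than D1 (0.0603 to 0.158). The other 5 did not pass. Of the 6 markers, 4 lay above 0 and 2 below, Thbd, thrombomodulin (-1.44), and Fst (-1.13). Thbd was at the floor in D1 and D3, and Pth1r in U1 and U2. The 7 stem cell markers summed to 7553 to 14029 in differentiated RNAs, against 15921 to 18412 in undifferentiated RNAs, with D1 the lowest, and Tdgf1 (-2.04) and Klf4 (-1.64) fell. Neither passed with lot as a block (adjusted p = 0.143 and 0.104), and Klf4 was also lost without U3 (0.0702). Pou5f1, the defining factor of the stem cell state, was between 11.66 and 12.04 in differentiated and between 12.11 and 12.19 in undifferentiated RNAs (adjusted p = 0.352). The 5 endothelial markers tested gave 1021 to 1374 in differentiated RNAs and 1227 to 1346 in undifferentiated RNAs, and 0 were called (limma; 0 at an unadjusted p under 0.05).

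**Figure D5:**
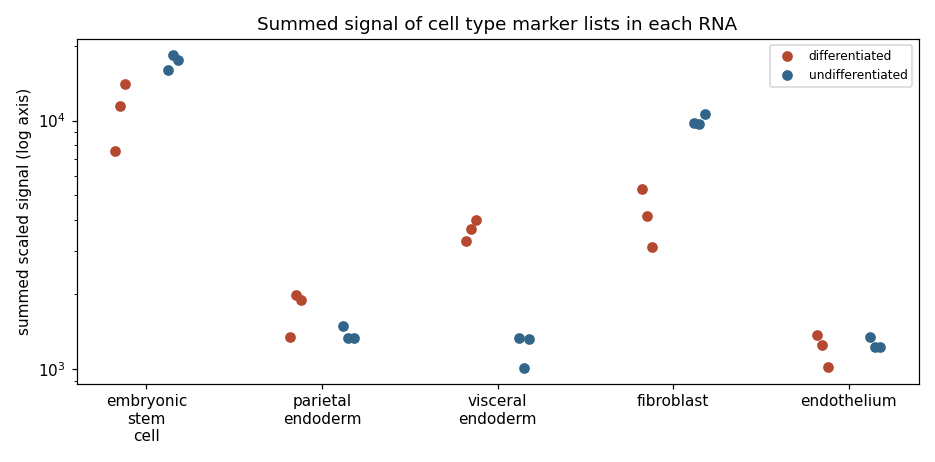
Summed scaled signal (vertical log axis) of the 5 marker lists in each RNA, differentiated in red on the left of each pair and undifferentiated in blue on the right. Fibroblast markers lie at 3113 to 5291 in differentiated and 9705 to 10632 in undifferentiated RNAs, and visceral endoderm markers at 3277 to 3977 in differentiated and 1012 to 1333 in undifferentiated RNAs.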

How the data were processed

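The deposited values are signal intensities on a linear scale, made by the authors with MAS5, the Affymetrix algorithm that summarises the probes of a probe set, per the submitters' processing notes. For its version and scaling target, the sources used here give nothing. The deposited 2% trimmed means of the arrays lay between 1500.1 and 1500.5, so arrays had been scaled to a common mean, which hides a change in total RNA per cell. Lot and station codes, deposited with each array and of no other unit, came from the experiment settings, per the file headers.

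Signals were multiplied by a factor per array that brought the 2% trimmed mean to 500, raised to 32 where lower, and converted to log2. Probe sets averaging under 6 over the 6 arrays were left out (4601 on MOE430A, 2167 on MOE430B), as were 64 controls on each. Groups were compared with limma 3.58.1 (lmFit, eBayes with an intensity trend, R 4.3.3), separately for each array type, two-sided, with Benjamini-Hochberg adjustment over all probe sets of the array and a threshold of 0.05. Folds were computed from log2 differences, and the floor understates those of dim genes. A gene was represented by its brightest probe set, MOE430A before MOE430B. Names came from the platform annotation, on single symbols. Replicate numbers of the titles were not used to pair the RNAs in the main fit. Deviations of same-numbered RNAs had low positive correlations, of 0.157, 0.012 and 0.073 on MOE430A and of 0.183, 0.097 and 0.118 on MOE430B. These values do not settle whether same-numbered RNAs were handled together, and the replicate block is given as an alternative.

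The members, the 5 accompanying lists and the 5 marker lists were chosen with earlier results of these data known. Genes named are all members, and of each list up to 4 called genes of largest difference in each direction. Outside this rule, and with their values known, Dag1, P4ha1 and Serpinh1 are named, as are Pou5f1, Dcn, Lum, Fst, Amn, Hnf4a and Pdgfra. The markers at the floor, Thbd, Pth1r, Col3a1 and Cubn, are also named outside it. For each called member, the 3 genes of most alike pattern are also named. Alternatives were other scalings, floors, filters, variance models, blocks, probe set choices, and leaving out each RNA.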

Additional observations from a re-analysis of the deposited data

How the results depend on the processing

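On MOE430A, 6 member probe sets were called. The count was 1 with a floor of 64, 1 without a filter on dim probe sets and 0 without the intensity trend (limma). It was 1 with the lot or station block, and 3 to 6 without each RNA in turn. In the fit with the trend, 13 of the 17 tested had an unadjusted limma p under 0.05, against 2847 (15.8%) of all 18025 probe sets. With 1 probe set per gene, 5 members were called, against 3 with median centring, 1 with a floor of 64, 1 without a filter, 0 without the trend, 0 with the lot or station block, 2 with the next probe set of each gene, and 2 to 4 without each RNA. The accompanying lists had 14 calls, against 8 with median centring, 4 with a floor of 64, 4 without a filter, 3 without the trend, 4 with the lot or station block, 8 when adjusted over both arrays, and 5 to 12 without each RNA. Over all probe sets of MOE430A, 518 were called, against 307, 194, 194, 97 and 106 under the first 5 of these settings (median centring, floor of 64, no filter, no trend, lot block), 319 when adjusted over both arrays, and 190 to 497 without each RNA. On MOE430B, 4 were called, against 2 with median centring, 2 with a floor of 16, 0 with a floor of 64, 1 without a filter, 0 without the trend, 0 with the station block, 10 when adjusted over both arrays, 1 with the replicate block, and 0 to 2 without each RNA (1066 had an unadjusted p under 0.05 in the first fit). The cause was not tested.

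The sign turned for probe sets that were never called. Lama1 was at 2.02 with the lot block, and between -1.15 and 0.77 without each RNA (0.77 without D1, 0.47 without U2, 0.39 without U3). Lamb1 1424113_at lay between -0.58 and 0.38 without each RNA (0.38 without D2, 0.10 without U1, 0.04 without U2). Lamb1 1446180_at was at 0.50 with the station block and between -1.25 and 0.23 without each RNA (0.23 without D3). The replicate block, which rests on a shared number only, gave 8 member calls, 5 members with 1 probe set per gene, 15 calls in the lists, and 724 of 18025 probe sets on MOE430A. Signals at or near the floor limit Lama1, Nid1 1448469_at and Lama5 1459614_at.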

Other observations

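For each called member, the genes whose log2 signals over the 6 MOE430A arrays, centred on their mean, lay at the smallest root mean square distance among 10558 other genes are given as a description. For Nid2 they were Fn1, fibronectin (0.05), with 11.42, 11.24 and 11.23 in D1 to D3, against 12.41, 12.50 and 12.49 in U1 to U3, then Rasgrp2 (0.09) and Akap12 (0.10). For Hspg2 they were Hacd2 (0.06), Plod3 (0.07), which is also in the list of collagen-modifying enzymes, and Pnpla6 (0.07). For Lama5 they were Phlda2 (0.08), Pim1 (0.10) and Emp3 (0.11). For Nid1 they were Ecm1 (0.26), Armc7 (0.26) and the laminin chain Lama3 (0.27), whose own difference of -1.11 did not pass (limma adjusted p = 0.262). For Col4a1 they were Hadh (0.14), Rab4a (0.15) and Ube2t (0.15).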
